A study of Mus musculus with 29 samples.

Results

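Fibrillar and fibril-associated collagens were followed through induction of heart failure (HF) and recovery of the mouse heart. The members are the genes of the deposited expression table whose symbols are Col1a1, Col1a2, Col3a1, Col5a1, Col5a2, Col5a3, Col8a1, Col12a1, Col14a1 and Col16a1, which is 10 of 29955 genes. They were chosen by name, with earlier results of these data known. Poly(A) RNA of the hearts was sequenced, and levels are given as FPKM, a fragment count corrected for how long the transcript is and for how many fragments a library gave. Levels of different genes can thus be compared per length. HF was induced in C57BL6 mice, male according to the methods and 3 months old at the start, with L-NAME, which blocks nitric oxide synthase, at 0.3 mg/ml and NaCl at 1% in the drinking water over 5 weeks. Angiotensin II, a hormone that raises blood pressure, was delivered at 0.7 mg/kg/day from an osmotic pump implanted after the first week. In the recovery groups these agents were then withdrawn.

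The groups were HF week 3 (2 libraries), HF week 5 (3 libraries, the end of induction), Recovery week 7 (2 libraries), Recovery week 9 (2 libraries), Recovery week 11 (3 libraries), Recovery week 13 (2 libraries), Recovery week 19 (5 libraries) and Control week 19 (5 libraries). Weeks count from the start of induction. Control week 19 mice received none of the agents and were matched in age to Recovery week 19, so they were 14 weeks older than the HF week 5 mice and a difference in age cannot be told apart from HF in any comparison of HF with control. The mice of Recovery weeks 7 to 13 were likewise younger than these controls, and Recovery week 19 and HF week 5 mice were 14 weeks apart in age, so age cannot be told apart from recovery in these comparisons either. The week 5 controls were not used, because 5 columns carry their name and 4 samples are labelled so. Labels give the tissue as whole heart or whole ventricle, whereas the methods give apical portions. Libraries are numbered within a group as names only, and p-values measure the spread between these libraries, since the labels do not tie them to animals.

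Fibrillar collagens are trimers that assemble into the banded fibrils of connective tissue. In the heart type I and type III collagen, made mainly by fibroblasts, form most of the network between the muscle cells, and type V collagen sits inside these fibrils and regulates how they start and how thick they grow. Fibril-associated collagens with interrupted triple helices, among them types XII, XIV and XVI, bind to or sit beside the fibrils. Col8a1 encodes a chain of type VIII collagen, a short-chain collagen that forms networks and is found in vessel walls, so by its structure it is neither fibrillar nor of the fibril-associated family.

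Promoter sequence shows what DNA lies before the start sites of members that moved together and of Col5a1, which differed from them at HF week 5. The RefSeq table of GRCm38.p6 held an entry for 6 of the 10 members, and the 250 bases upstream of the start site are shown for 4 of them, from 5′ to 3′. The regions are chr6:4505368-4505617 on the plus strand for Col1a2, chr1:45311288-45311537 on the plus strand for Col3a1, chr2:27886175-27886424 on the plus strand for Col5a1 and chr4:130047590-130047839 on the plus strand for Col16a1. The authors aligned to another build, so these coordinates belong to the promoter table and not to the expression values. Capitals mark matches, on either strand, to 4 motifs. The first is TATAAA, known as the TATA box. The second is CCAAT, which NF-Y binds. The third is GGGCGG, known as the GC box, which Sp1 binds and which reads as its reverse complement where it lies on the other strand. The fourth is the AP-1 motif TGANTCA.
Col1a2: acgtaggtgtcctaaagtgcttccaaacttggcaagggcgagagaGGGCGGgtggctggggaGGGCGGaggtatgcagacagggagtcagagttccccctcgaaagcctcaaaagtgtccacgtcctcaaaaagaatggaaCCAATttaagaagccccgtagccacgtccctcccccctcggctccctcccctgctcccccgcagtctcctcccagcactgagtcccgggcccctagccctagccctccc
Col3a1: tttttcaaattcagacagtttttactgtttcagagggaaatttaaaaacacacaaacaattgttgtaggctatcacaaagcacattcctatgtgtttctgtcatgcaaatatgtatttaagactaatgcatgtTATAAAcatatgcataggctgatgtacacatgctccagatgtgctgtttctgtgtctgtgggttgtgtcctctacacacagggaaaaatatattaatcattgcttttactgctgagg
Col5a1: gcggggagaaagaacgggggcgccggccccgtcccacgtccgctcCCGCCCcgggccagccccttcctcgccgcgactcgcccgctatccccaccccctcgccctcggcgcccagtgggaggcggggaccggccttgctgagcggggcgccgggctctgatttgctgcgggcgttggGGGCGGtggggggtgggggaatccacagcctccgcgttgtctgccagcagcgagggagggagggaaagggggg
Col16a1: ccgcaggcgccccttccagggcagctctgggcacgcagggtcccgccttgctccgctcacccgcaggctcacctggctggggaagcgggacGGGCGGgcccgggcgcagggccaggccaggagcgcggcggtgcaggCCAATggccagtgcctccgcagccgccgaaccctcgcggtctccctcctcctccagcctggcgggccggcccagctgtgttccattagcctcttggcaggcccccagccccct
Col1a2 holds CCAAT 109 bases upstream of the start site and GGGCGG at 188 and 205 bases. Col3a1 holds TATAAA 117 bases upstream and none of the other motifs. Col5a1 holds GGGCGG at 73 bases and, on the other strand, at 205 bases, and Col16a1 holds CCAAT at 113 bases and GGGCGG at 159 bases. The share of G and C was 35.2% in Col3a1, 62.0% in Col1a2, 75.6% in Col16a1 and 76.4% in Col5a1, against a mean of 53.2% over 32851 promoters of the same length. Of the 6 members matched, 5 hold GGGCGG (32.7% of all promoters), 3 hold CCAAT (33.8%), 1 holds TATAAA (12.4%) and 0 hold TGANTCA (6.75%). A match describes these letters in this window and is not shown to be a site.

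Several libraries stood apart, and this bears on the results. Myl7, the atrial myosin light chain, had 1805 and 5773 FPKM in the HF week 3 libraries and 18388, 152 and 6.16 FPKM in HF week 5 libraries 1, 2 and 3, against 0 to 3.56 FPKM in the other 19 libraries. Summed over the 8 atrial cardiomyocyte markers, the range was 94.3 to 353 FPKM in control and 2235 to 82234 FPKM in HF week 5. It was 7816 to 14281 FPKM in HF week 3, where Nppa and Bmp10 were at 0. Of the 7 markers tested 6 were called higher at HF week 5 (11.6% of all genes). At HF week 3, 6 were called higher and 1 lower (23.1% and 27.6% of all genes). Summed over the 7 epicardial and mesothelial markers, the range was 5.29 to 7.81 FPKM in control, 79.1 to 252 FPKM in HF week 3 and 15.1 to 90.2 FPKM in HF week 5. Cells of these tissues can hold collagen transcripts, and their part in the collagen levels was not tested. In HF week 3 library 1 only 12816 genes were above 0, and in each of the others 16339 to 18091 were. Myh6, the main myosin heavy chain of the adult mouse heart, was listed at 0 in every library of weeks 5 and 19 and had 37546 to 316195 FPKM in the libraries of HF week 3 and Recovery weeks 7 to 13. Of the other ventricular markers, Actc1, Myl2 and Mb were also at 0 in every control, and Mb in every Recovery week 19 library, so these groups differ in which genes are listed at 0. The 12 ventricular markers summed to 33570 to 40982 FPKM in control, 47213 to 104118 FPKM in HF week 5 and 57507 to 94301 FPKM in Recovery week 19. Comparisons of HF week 3 or Recovery weeks 7 to 13 with HF week 5 or Control week 19 run across the difference in Myh6, which cannot be told apart from the week. The ventricular markers Tnnt2 (4391 to 9465 FPKM) and Tnni3 (7280 to 14406 FPKM) and the fibroblast marker Tcf21 (8.12 to 20.5 FPKM) were present in every library. The relative depth of 23 libraries, read from the steps between low values, was 0.723 to 1.39, and the absolute depth is unknown.

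**Figure D1:**
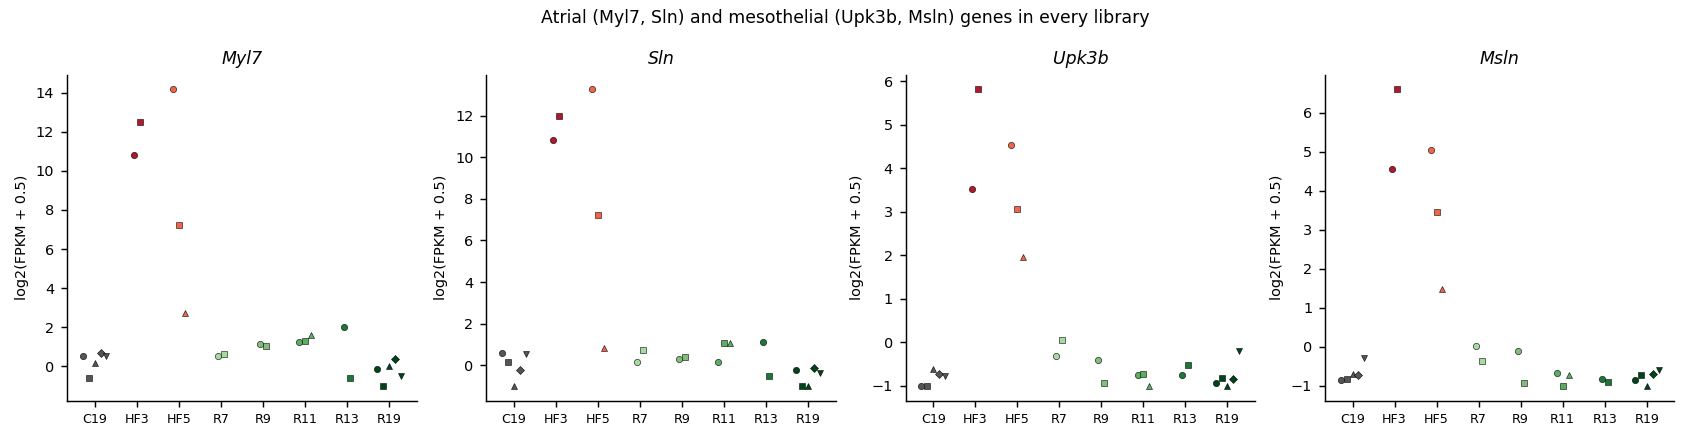
Level of Myl7 and Sln (atrial) and of Upk3b and Msln (mesothelial) in each of the 24 libraries as log2(FPKM + 0.5), with groups on the x axis (C control, HF heart failure, R recovery, number for the study week) and a symbol for the library number. Both HF week 3 libraries and HF week 5 library 1 are high in all panels, HF week 5 library 3 is lowest of the HF libraries in all panels, and the other 19 libraries lie at or below 3.56 FPKM for Myl7.

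In the week 19 controls, Col3a1, the chain of type III collagen, had the highest level at 27.2 ± 1.76 FPKM (SD, n = 5). Col1a2 and Col1a1, the chains of type I collagen, followed with 20.4 ± 1.77 and 19.3 ± 3.99 FPKM, and their ranges over the libraries overlapped. The next were Col5a1 with 5.01 ± 0.769, Col5a3 with 4.69 ± 0.314 and Col16a1 with 4.55 ± 0.712 FPKM, whose ranges overlapped in turn. Col5a2 had 2.80 ± 0.0958 FPKM, below these and with the smallest spread relative to its mean. Col14a1 with 2.10 ± 0.381 and Col8a1 with 1.86 ± 0.164 FPKM overlapped, and Col12a1 was lowest with 0.0859 ± 0.0348 FPKM. The sum of the 10 members was 88.0 ± 5.53 FPKM, and Col1a1, Col1a2 and Col3a1 held between 70.7% and 80.6% of that sum in each of the 24 libraries. The mean of Col12a1 over all libraries lay below the filter of 0.5 FPKM, so 9 of the 10 members were tested and Col12a1 is given by its levels.

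**Figure D2:**
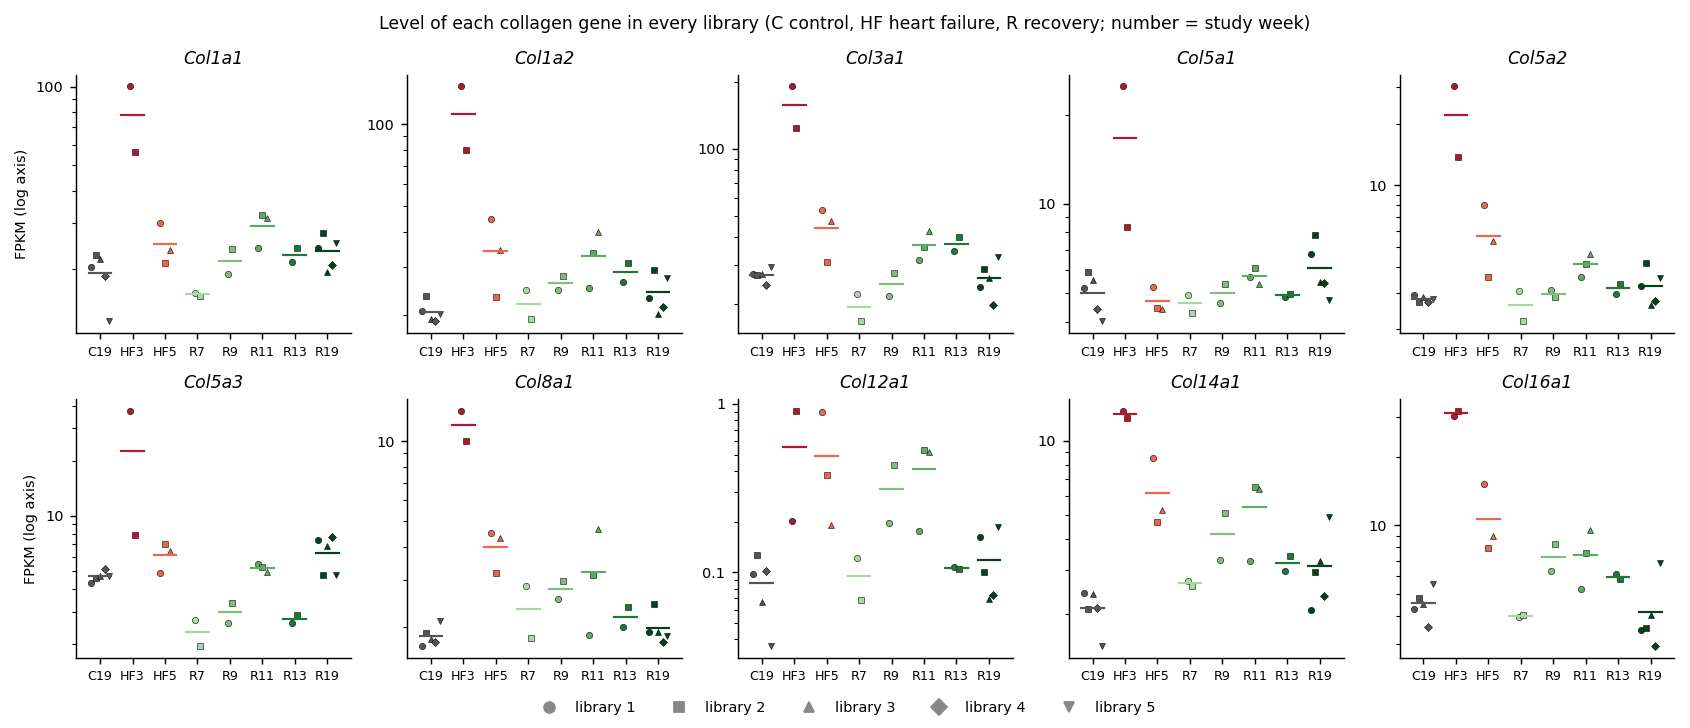
FPKM (log axis) of the 10 collagen genes in each of the 24 libraries, by group (C control, HF heart failure, R recovery, number for the study week), with a symbol for the library number and a line at the group mean. All 10 genes are above every control in both HF week 3 libraries, and HF week 5 library 1 is the highest of its group for 9 of them.

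At HF week 3, during induction, the collagens were at their highest level of the study. The sum of the members was 578 and 346 FPKM in the 2 libraries, against 82.2 to 95.3 FPKM in control. Col3a1 had 191 and 124 FPKM where the controls had 24.5 to 29.4, and Col1a2 had 138 and 80.1 FPKM where the controls had 18.9 to 23.4. Both HF libraries lay far above the controls. On the log2(FPKM + 0.5) scale, on which fold changes of low genes are understated, limma gave a log2 fold change of 2.48 for Col3a1 (SE 0.209, adjusted p = 6.72e-08) and 2.34 for Col1a2 (SE 0.229, adjusted p = 3.52e-07). Col1a1 had 100.4 and 56.1 FPKM, a log2 change of 1.96 (SE 0.223). All 9 members tested rose, where 23.1% of all genes tested were called higher, and all 10 members lay above every control, where 21.4% of all genes did. The median log2 fold change of the members was 2.34, and that of all genes tested was -0.05.

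The chains of type V collagen differed in how far the HF week 3 libraries agreed. Col5a2 had 30.4 and 13.8 FPKM against 2.70 to 2.92 in control, and its log2 fold change of 2.67 (SE 0.250, adjusted p = 2.32e-07) was the largest of the members. Col5a1 had 24.9 FPKM in library 1 and 8.33 FPKM in library 2, against 4.02 to 5.87 in control. Col5a3, which encodes a type V chain of narrower distribution, had 37.4 and 7.87 FPKM, against 4.29 to 5.16 in control. For both genes library 1 was several times as high as library 2, which itself lay above every control. Their log2 fold changes were 1.45 for Col5a1 (SE 0.258, adjusted p = 0.000162) and 1.78 for Col5a3 (SE 0.340, adjusted p = 0.000319). Without HF week 3 library 1 both were 0.69, with adjusted p-values of 0.0164 and 0.0291, and without library 2 they were 2.22 and 2.87.

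Of the fibril-associated members, Col14a1 and Col16a1 were alike in both HF week 3 libraries and Col12a1 was not. Col14a1, which encodes type XIV collagen, had 13.2 and 12.4 FPKM against 1.48 to 2.43 in control, a log2 change of 2.37 (SE 0.277, adjusted p = 2.34e-06). Col16a1, which encodes type XVI collagen, had 30.4 and 31.8 FPKM against 3.60 to 5.54 in control, a log2 change of 2.66 (SE 0.260, adjusted p = 3.43e-07). For both genes the HF libraries lay close together and far above the controls. Col8a1 had 13 and 10.1 FPKM against 1.70 to 2.12 in control, a log2 change of 2.34 (SE 0.219, adjusted p = 2.25e-07). Col12a1, which encodes type XII collagen, had 0.202 and 0.907 FPKM, both above the 0.0366 to 0.127 FPKM of the controls, with library 2 several times as high as library 1.

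At HF week 5, the end of induction, 6 of the 9 members tested were higher than in Control week 19 and 0 were lower, where 11.6% of all genes tested were called higher. The median log2 fold change of the members was 0.68 and that of all genes was 0.04. The sum of the members was 175, 107 and 141 FPKM in libraries 1, 2 and 3, all above the highest control of 95.3 FPKM. In bulk tissue, more cells of a type and more RNA per cell cannot be told apart. Groups did not overlap for 6 of the 10 members, all higher in HF (Col3a1, Col5a2, Col8a1, Col12a1, Col14a1 and Col16a1), where 14.8% of all genes tested were higher without overlap. HF week 5 library 3, in which Myl7 was 6.16 FPKM, had 9 of the 10 members above every control, all but Col5a1, where 29.8% of the genes tested were. This library too lay above the controls in its summed atrial markers (2235 FPKM) and mesothelial markers (15.1 FPKM). Its Myl7, Sln and Myl4 had 6.16, 1.28 and 8.05 FPKM, so nearly all of the atrial sum lay in other genes of that list. Library 1 had 8 members above every control (37.2% of the genes tested) and library 2 had 7 (28.9%).

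Among the fibrillar chains, Col3a1 had 53.0, 31.0 and 47.5 FPKM in HF week 5 and 27.4, 27.2, 27.4, 24.5 and 29.4 FPKM in Control week 19. Library 2 lay just above the highest control and the other 2 lay well above. Col3a1 rose by a log2 difference of 0.65 (SE 0.183, adjusted p = 0.0152 from limma). Col1a2 had 44.9, 23.3 and 34.6 FPKM against 20.6, 23.4, 19.2, 18.9 and 20.02 in control. Library 2 lay inside the control range, so the groups overlapped. The log2 fold change of Col1a2 was 0.68 (SE 0.200, adjusted p = 0.0182). Col1a1, the other chain of type I collagen, had 30.2, 21.2 and 23.8 FPKM against 20.4, 22.7, 21.8, 18.9 and 12.7 in control. Its groups overlapped through library 2, and its log2 fold change of 0.38 did not pass (SE 0.194, 95% CI -0.03 to 0.79, adjusted p = 0.166).

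The 3 chains of type V collagen did not move alike. Col5a2 had 8.03, 3.60 and 5.35 FPKM in HF week 5 against 2.92, 2.70, 2.86, 2.71 and 2.82 in control, without overlap, and rose by a log2 difference of 0.84 (SE 0.219, adjusted p = 0.00970). Col5a1 had 5.23, 4.46 and 4.42 FPKM against 5.18, 5.87, 5.54, 4.43 and 4.02 in control. Its groups overlapped throughout, and its log2 fold change was -0.07 (SE 0.225, 95% CI -0.54 to 0.40, adjusted p = 0.839). Col5a3 had 4.85, 6.99 and 6.43 FPKM against 4.29, 4.60, 4.69, 5.16 and 4.69 in control. Here library 1 was the lowest of its group and inside the control range, and the log2 fold change of 0.33 did not pass (SE 0.297, 95% CI -0.29 to 0.95, adjusted p = 0.444).

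Among the members outside the fibrils that were tested, Col14a1 had the largest log2 fold change. It had 8.54, 4.68 and 5.24 FPKM in HF week 5 and 2.43, 2.08, 2.39, 2.11 and 1.48 FPKM in control. Every HF library lay well above the highest control, and the log2 fold change was 1.33 (SE 0.242, adjusted p = 0.000896). Col16a1 had 15.2, 7.95 and 8.97 FPKM against 4.28, 4.79, 4.52, 3.60 and 5.54 in control, without overlap. It rose by a log2 difference of 1.11 (SE 0.227, adjusted p = 0.00204). Col8a1 had 4.52, 3.19 and 4.32 FPKM against 1.70, 1.90, 1.80, 1.76 and 2.12 in control, again without overlap, and rose by a log2 difference of 0.93 (SE 0.191, adjusted p = 0.00213). Col12a1 had 0.896, 0.376 and 0.192 FPKM, all above the control range of 0.0366 to 0.127 FPKM, and was not tested.

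HF week 5 library 1, which had the highest atrial and mesothelial levels of its group, was also the highest of its group for 9 of the 10 members, all but Col5a3. Without it Col8a1 (log2 fold change 0.84, adjusted p = 0.0203), Col14a1 (1.08, adjusted p = 0.0128) and Col16a1 (0.84, adjusted p = 0.0285) were still called. Col1a2 (0.47, adjusted p = 0.165), Col3a1 (0.49, adjusted p = 0.124) and Col5a2 (0.57, adjusted p = 0.110) were not. Without library 3, Col1a2 and Col3a1 were not called. At an unadjusted p under 0.05 the count of members was 6 with all libraries, 6 without library 1 and 6 without library 3. With all libraries, 18.8% of all genes tested were higher at that threshold.

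**Figure D3:**
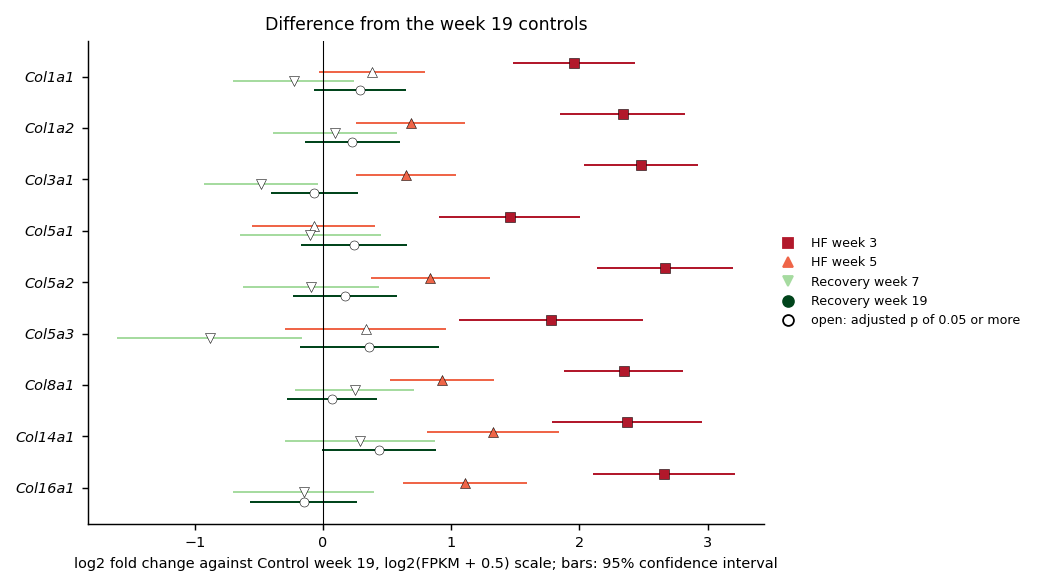
Log2 fold change of each collagen gene tested against Control week 19 with its 95% confidence interval from limma, for HF week 3, HF week 5, Recovery week 7 and Recovery week 19. Filled symbols have an adjusted p under 0.05: all 9 genes at HF week 3, 6 genes at HF week 5 and none at Recovery weeks 7 and 19.

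From HF week 3 to HF week 5, while the agents were still given, all 9 members tested fell, where 8.28% of all genes tested were called lower. For 9 of the 10 members every HF week 5 library lay below both HF week 3 libraries, where 11.5% of all genes did, and Col12a1 overlapped. Log2 fold changes ran from -1.05 for Col14a1 (SE 0.302, adjusted p = 0.0244) to -1.84 for Col3a1 (SE 0.228, adjusted p = 0.000109). On the log2 scale the difference from control at week 5 was 55.9% of that at week 3 for Col14a1, 41.7% for Col16a1, 39.5% for Col8a1 and 31.3% for Col5a2. It was 29.3% for Col1a2, 26.0% for Col3a1, 19.4% for Col1a1 and 18.7% for Col5a3, and for Col5a1 the week 5 difference was of the other sign. Both differences share the controls, so these shares are a description. Without HF week 3 library 1 the falls of Col5a1 (log2 fold change -0.77, adjusted p = 0.106), Col5a3 (-0.36, adjusted p = 0.652) and Col14a1 (-1.0, adjusted p = 0.289) were not called. That of Col14a1 was also not called without HF week 5 library 2 (adjusted p = 0.0825) or library 3 (adjusted p = 0.0671). With only the 5 libraries of these groups in the fit, limma called 0 members at the adjusted p and 8 of all genes. Of the 10 members then tested, 8 had an unadjusted p under 0.05. In the fit of all groups, 15.4% of all genes tested were lower at that threshold.

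At Recovery week 7, the first point after withdrawal, 5 of the 9 members tested were lower than at HF week 5 and 0 were higher, where 6.75% of all genes tested were called lower. The 2 recovery libraries had 22.2 and 16.8 FPKM of Col3a1, 3.07 and 2.19 of Col5a2, 2.70 and 1.95 of Col5a3, 2.71 and 2.59 of Col14a1 and 3.98 and 4.04 of Col16a1. Each of these values lay below every HF week 5 library. Log2 fold changes were -1.13 for Col3a1 (SE 0.228, adjusted p = 0.00377), -0.93 for Col5a2 (SE 0.273, adjusted p = 0.0293) and -1.22 for Col5a3 (SE 0.371, adjusted p = 0.0340). They were -1.04 for Col14a1 (SE 0.302, adjusted p = 0.0282) and -1.26 for Col16a1 (SE 0.284, adjusted p = 0.00708). Col1a1 (-0.61, adjusted p = 0.0961), Col8a1 (-0.68, adjusted p = 0.0605) and Col1a2 (-0.59, adjusted p = 0.117) did not pass, and Col5a1 had -0.02 (95% CI -0.61 to 0.56). In 8 of the 10 members the groups did not overlap, all lower in recovery, where 27% of all genes tested were lower without overlap at these group sizes. The count of 5 rests on few libraries: it was 1 without Recovery week 7 library 1, 0 without library 2, 2 without HF week 5 library 1, 3 without library 3 and 6 without library 2.

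By Recovery week 19, 5 of the 9 members tested were lower than at HF week 5, where 12% of all genes tested were called lower. Col16a1 had 3.48, 3.54, 4.04, 2.95 and 6.87 FPKM in Recovery week 19, all below the 7.95 FPKM of the lowest HF library. Its log2 fold change was -1.26 (SE 0.227, adjusted p = 0.000768). Col8a1 had 1.92, 2.45, 1.92, 1.76 and 1.85 FPKM, all below the 3.19 FPKM of the lowest HF library, and a log2 change of -0.86 (SE 0.191, adjusted p = 0.00362). Both groups of libraries were apart for these genes and for Col12a1 (0.161, 0.101, 0.0694, 0.0735 and 0.185 FPKM in recovery), that is for 3 of the 10 members, where 12.7% of all genes tested were lower without overlap. Col3a1 had 23.8, 28.7, 26.2, 19.8 and 32.4 FPKM and Col14a1 had 2.06, 2.95, 3.26, 2.35 and 4.91 FPKM. In both genes recovery library 5 lay above HF week 5 library 2, so the groups overlapped. Their log2 fold changes were -0.71 for Col3a1 (SE 0.183, adjusted p = 0.00854) and -0.89 for Col14a1 (SE 0.242, adjusted p = 0.0121).

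Col5a2 had 3.22, 4.17, 2.61, 2.74 and 3.53 FPKM in Recovery week 19 and a log2 fold change of -0.67 against HF week 5 (SE 0.219, adjusted p = 0.0322), with recovery library 2 above HF library 2. Col1a2, with 23.0, 29.2, 20.1, 21.3 and 27.2 FPKM, did not pass (log2 fold change -0.46, 95% CI -0.88 to -0.04, adjusted p = 0.102). Col1a1 had 24.1, 27.5, 19.5, 20.7 and 25.2 FPKM in recovery, within the range of the HF libraries but for libraries 3 and 4, and a log2 fold change of -0.09 (95% CI -0.50 to 0.32). Col5a1 with 6.76, 7.88, 5.45, 5.42 and 4.75 FPKM had a log2 fold change of 0.32 (95% CI -0.16 to 0.79), and Col5a3 with 7.37, 4.73, 6.83, 7.69 and 4.77 FPKM was level (0.03, 95% CI -0.59 to 0.65). None of these 4 genes was called. Without HF week 5 library 1 only Col8a1 (-0.77, adjusted p = 0.0291) and Col16a1 (-0.99, adjusted p = 0.0109) were called, and Col3a1 (-0.56, adjusted p = 0.0751), Col5a2 (-0.40, adjusted p = 0.263) and Col14a1 (-0.65, adjusted p = 0.111) were not. Col5a2 was also not called without HF week 5 library 3 or Recovery week 19 library 3 or 4, and Col1a2 was called without HF week 5 library 2.

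Recovery week 19 was compared with its age-matched controls. Of the 9 members tested, 0 were called by limma at the adjusted p and 0 at an unadjusted p under 0.05, where 0.0235% and 2.88% of all genes tested were. The sum of the members was 98.8 ± 12.3 FPKM (SD, n = 5) in recovery and 88.0 ± 5.53 FPKM in control. Log2 fold changes ran from -0.15 for Col16a1 (95% CI -0.56 to 0.26) to 0.43 for Col14a1 (95% CI -0.003 to 0.87, unadjusted p = 0.0512). For Col1a1 the interval was -0.06 to 0.64, for Col1a2 -0.14 to 0.59 and for Col3a1 -0.40 to 0.26. For Col5a1 it was -0.17 to 0.65, for Col5a2 -0.22 to 0.57, for Col5a3 -0.18 to 0.90 and for Col8a1 -0.28 to 0.41. The groups overlapped for all 10 members. These intervals hold differences of either sign, so the result does not show equal levels.

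**Figure D4:**
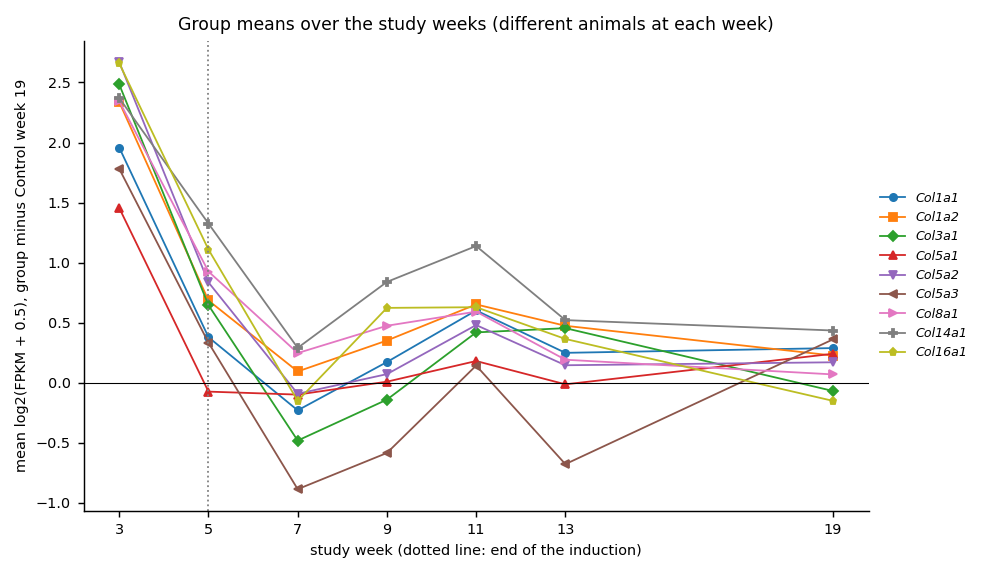
Mean log2(FPKM + 0.5) of each group minus that of Control week 19 for the 9 collagen genes tested, by study week, with the end of induction at the dotted line. All genes are highest at week 3, Col14a1 lies above the other genes from week 5 to week 13, and Col5a3 is lowest from week 7 to week 13.

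Between these points, Recovery weeks 7, 9, 11 and 13 were each compared with Control week 19, and 0 of the 36 member-by-week tests were called by limma at the adjusted p (0.047%, 0.0549%, 0.149% and 0.0784% of all genes tested at these weeks). At an unadjusted p under 0.05 there were 2, 3, 7 and 1 (3.61%, 3.6%, 8.45% and 10.4% of all genes). The members were not at one level over these weeks: the mean of their sum was 76.1 FPKM at week 7, 98.0 at week 9, 130 at week 11 and 111 at week 13. Recovery week 11 lay highest. There 6 of the 10 members (Col1a1, Col1a2, Col3a1, Col5a2, Col12a1 and Col14a1) had all 3 libraries above every control, where 5.75% of all genes tested did. Col14a1 had 3.27, 6.54 and 6.37 FPKM at week 11, above every control, and a log2 change of 1.14 (SE 0.242, adjusted p = 0.0636, with 0.0113 to 0.626 over the alternatives). Without library 1 of that week, the lowest for 8 of the 10 members, Col14a1 (log2 fold change 1.43, adjusted p = 0.0113) and Col8a1 (0.88, adjusted p = 0.0301) were called. Summed fibroblast markers were 1773 to 2560 FPKM at week 11 and 976 to 1245 FPKM in control. Activated fibroblast markers summed to 148 to 165 FPKM against 80.4 to 106 in control and valve and cartilage-like markers to 4.42 to 15.2 FPKM against 1.00 to 3.42, without overlap, while immune markers, at 368 to 525.9 FPKM against 198 to 380, overlapped. Fibroblast sums also lay above every control at week 9 (1548 to 1803 FPKM) and week 13 (1577 to 1997 FPKM). So did valve and cartilage-like sums at week 9 (3.83 to 13.1 FPKM) and immune sums at week 13 (450 to 589 FPKM). Atrial sums lay above the control range of 94.3 to 353 FPKM at week 7 (383 to 667 FPKM) and week 9 (1087 to 2439 FPKM). They did so too at week 11 (365 to 1437 FPKM) and week 13 (435 to 477 FPKM). The valve and cartilage-like list includes Comp, which is also counted among the collagen-binding matrix proteins below. The part of all these markers in the collagen levels was not tested.

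Col5a3 and Col3a1 lay below the control range early in recovery, and neither was called. The Recovery week 7 libraries had 2.70 and 1.95 FPKM of Col5a3, those of week 9 had 2.60 and 3.35 and those of week 13 had 2.61 and 2.87, each below the lowest control of 4.29 FPKM. At week 11 it had 5.46, 5.27 and 4.93 FPKM, at the upper end of the control range or above it. Its log2 fold change against control was -0.89 at week 7 and was not called. Col3a1 had 22.2 and 16.8 FPKM at week 7, below the lowest control of 24.5 FPKM, and 34.8 and 40.1 FPKM at week 13, above the highest control of 29.4 FPKM. Groups did not overlap for 1 member higher and 2 lower at week 7 (7.9% and 7.69% of all genes tested), for 5 higher and 1 lower at week 9 (7.33% and 7.87%), and for 5 higher and 1 lower at week 13 (13.1% and 13.6%).

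Ratios between chains were taken within each library, where the scaling of the library cancels. The ratio of Col3a1 to Col1a1, of type III to type I collagen, was 1.48 ± 0.472 (SD, n = 5) in control, 1.74 ± 0.268 (n = 3) in HF week 5 and 1.12 ± 0.180 (n = 5) in Recovery week 19, and 1.90 and 2.22 in HF week 3. HF week 5 and control did not differ beyond their spread (difference of the mean log2 ratio 0.27, two-sided exact permutation p = 0.393, where 0.0357 is the smallest these groups can give). Single libraries moved this difference: it was 0.44 without control library 5 (exact permutation p = 0.0571, the smallest that 4 against 3 libraries can give, so that no p under 0.05 could be reached), where the other controls all lay below the HF week 5 libraries, and 0.16 without HF week 5 library 3 (exact permutation p = 0.667). The ratio of Col1a1 to Col1a2, whose products form type I collagen together, was 0.946 ± 0.187 in control, 0.757 ± 0.134 in HF week 5 and 0.973 ± 0.0461 in Recovery week 19 (HF week 5 minus control -0.31, two-sided exact permutation p = 0.214). After adjustment over these 2 ratios both exact permutation p-values were 0.393. Control library 5 stood apart in both, with a ratio of 2.32 for Col3a1 to Col1a1 and of 0.633 for Col1a1 to Col1a2. Its Col1a1, at 12.7 FPKM, was the lowest of all 24 libraries. For Col1a1 to Col1a2 the other controls (0.973 to 1.14) all lay above the HF week 5 libraries (0.672 to 0.912).

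The ratio of Col5a1 to Col5a2 was chosen after its values were seen and is a description. It was 1.43 to 2.17 in control, 0.605 and 0.819 in HF week 3 and 0.652 to 1.24 in HF week 5, so that all 5 HF libraries lay below all controls. In recovery the group means were 1.79 at week 7, 1.69 at week 9, 1.40 at week 11, 1.56 at week 13 and 1.88 at week 19. The transcript of Col5a1 was thus the more abundant of the pair per length in every control library, and that of Col5a2 in 4 of the 5 HF libraries.

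**Figure D5:**
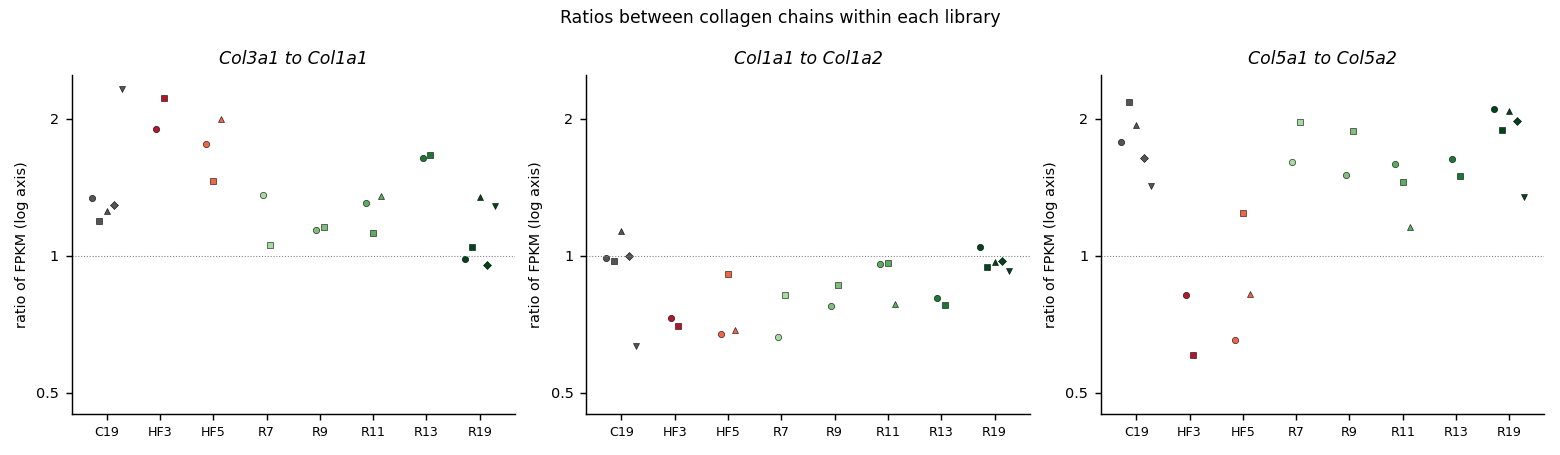
Ratio of FPKM (log axis) of Col3a1 to Col1a1, Col1a1 to Col1a2 and Col5a1 to Col5a2 in each of the 24 libraries, by group (C control, HF heart failure, R recovery, number for the study week), with a symbol for the library number and a dotted line at 1. Col5a1 to Col5a2 is at most 1.24 in the HF libraries and at least 1.43 in the controls, and control library 5 is apart in the other panels.

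Other genes of the collagen pathway were counted from lists. Of 32 other collagen chains that the table lists, 13 were tested, and at HF week 5 against control 2 rose and 0 fell, where 11.6% of all genes were called higher, so the share was near the background. These were Col18a1 (log2 fold change 0.84, adjusted p = 0.00310), the parent of endostatin, and Col15a1 (0.30, adjusted p = 0.0494), both basement membrane zone collagens. At HF week 3, 8 of the 13 were higher and 1 was lower (23.1% and 27.6% of all genes). Without HF week 5 library 1, 2 were higher. The median log2 fold change of this list at HF week 5 was 0.17, against 0.68 over the members and 0.04 over all genes.

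Of 21 genes of collagen processing tested, 15 rose and 1 fell at HF week 3 against control (23.1% and 27.6% of all genes). At HF week 5 against control, 4 of the 21 rose and 2 fell. There 11.6% of all genes were called higher and 12.4% lower, so the share that fell was near that of all genes. Those with the largest rise were Adamts2 (log2 fold change 0.74, adjusted p = 0.00934), which cleaves the N-terminal propeptide of procollagens, Pcolce (0.60, adjusted p = 0.0190), an enhancer of C-terminal propeptide cleavage, and Lox (0.57, adjusted p = 0.0409), which cross-links collagen. Glt25d1, a collagen galactosyltransferase (-0.69, adjusted p = 0.00639), and P4ha2, a subunit of prolyl 4-hydroxylase (-0.48, adjusted p = 0.0153), fell. Without HF week 5 library 1, limma called 0 higher and 1 lower (4 and 3 at an unadjusted p under 0.05).

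Of 22 collagen-binding matrix proteins tested, 12 rose and 0 fell at HF week 5 against control, where 11.6% of all genes were called higher. Fmod, which encodes the fibril-binding proteoglycan fibromodulin, had a log2 fold change of 3.35 (adjusted p = 0.000519), Comp, a matrix protein of cartilage and tendon, had 3.25 (adjusted p = 0.000187), and Postn, which encodes periostin, had 1.81 (adjusted p = 0.000839). Without HF week 5 library 1, 4 of the 22 were higher, while at an unadjusted p under 0.05 the count was 13 with that library and 12 without it. From HF week 5 to Recovery week 19, 7 of them fell and 1 rose (12% of all genes were called lower), and without HF week 5 library 1 the counts were 4 and 1. Of the fibroblast markers 8 of 13 were higher and 1 lower in HF week 5, and 1 of 13 was higher without library 1. At an unadjusted p under 0.05 the fibroblast markers higher were 8 of 13, and 9 of 13 without library 1. Of the activated fibroblast markers 6 of 8 were higher, and 5 of 8 without library 1.

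Markers of some other cell types were also higher at the HF weeks, where 11.6% of all genes were called higher at HF week 5 and 23.1% at HF week 3. Of 10 endothelial markers 5 were called higher at HF week 5 and 7 at HF week 3, where 1 was called lower, and their sum was 531 to 752 FPKM at HF week 5 and 781 to 842 FPKM at HF week 3, against 396 to 498 FPKM in control. Of the 7 valve and cartilage-like markers 2 were tested, and 1 was called higher at each HF week. The 7 summed to 8.30 to 26.1 FPKM at HF week 5 and 19.9 to 29.7 FPKM at HF week 3. Most of the HF week 5 sum was Comp (7.05 to 23.7 FPKM), which is also counted among the collagen-binding matrix proteins. Of 10 smooth muscle and pericyte markers 4 were called higher at each HF week and 1 lower at HF week 3, with sums of 905 to 1356 FPKM at HF week 5 and 1112 to 2037 FPKM at HF week 3 against 897 to 1240 FPKM in control. Without HF week 5 library 1 the count of 4 at HF week 5 was 2, and at an unadjusted p under 0.05 it was 5 with and without that library. The smooth muscle and pericyte sums overlapped with control at both HF weeks, and the endothelial and valve sums did not. Of 10 immune markers tested, limma called 0 at HF week 5 (1 at an unadjusted p under 0.05) and 1 higher and 1 lower at HF week 3. Immune markers summed to 261 to 497 FPKM at HF week 5, overlapping with control, and to 406 to 414 FPKM at HF week 3. From HF week 5 to Recovery week 7, where 6.75% of all genes were called lower, 5 of 10 endothelial, 2 of 10 smooth muscle and pericyte, 4 of 7 atrial and 4 of 7 epicardial and mesothelial markers fell. Without HF week 5 library 1 these counts were 2, 1, 2 and 4. From HF week 5 to Recovery week 19, where 12% of all genes were called lower, the counts were 4, 5, 5 and 5. They were 4, 4, 5 and 4 without that library. Of the mesothelial markers, Upk3b and Msln had at most 0.539 and 0.522 FPKM in the 19 libraries outside the HF weeks. Both passed the filter through the HF libraries alone, so their falls follow from the filter and are no support. Of the activated fibroblast markers 6 of 8 fell in each of these comparisons, with and without library 1. Of the fibroblast markers 4 of 13 fell to Recovery week 7 and 3 of 13 to Recovery week 19, and 1 rose in each. Without library 1, 0 fell in either by limma (3 and 1 at an unadjusted p under 0.05). Of the immune markers 2 of 10 fell to Recovery week 7, with 0 by limma without library 1 (3 at an unadjusted p under 0.05), and 1 of 10 fell to Recovery week 19. The part of these cells in the collagen levels was not tested.

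Genes with the pattern most like the members were found by the Pearson r over the 24 libraries with the mean of the standardized values of the 9 members tested, among 11444 genes. The first 5 were Tspan5 (r = 0.960), Leprel2 (0.954), Panx1 (0.954), Sdc1 (0.948) and Ptbp1 (0.941), followed by Htra4, Npdc1, Ahnak2, Kctd11 and Phlda3 (0.932). Libraries share their group, and both HF week 3 libraries are far from the others. Without them, in a ranking added after the values were seen, the first were C1ra (0.910), Myoc (0.908), Ccdc80 (0.903), Bgn (0.901) and Comp (0.899) over 22 libraries. Among the members themselves, Col1a2 and Col5a2 were most alike (r = 0.972 over 24 libraries, 0.879 over 22). Col14a1 was most like Col16a1 over 24 libraries (r = 0.917, and 0.845 over 22) and most like Col12a1 over 22 (0.874, and 0.789 over 24). The highest r of Col5a3 with any member was 0.804 over 24 libraries, with Col5a1, and 0.301 over 22, with Col1a1.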

How the data were processed

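The authors aligned paired-end reads to MGSCv37 with TopHat and calculated FPKM with Cuffdiff, and the deposited table holds one FPKM column for each library. The annotation and the scaling between libraries are not given in the sources used here, and differences that arose in these steps are contained in the values. The week in a column's name gave its group. Of the columns, 5 were not used, and 3 samples are labelled Recovery week 9 where 2 columns carry its name. The planned control for HF week 5 was therefore replaced by Control week 19.

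The model was fitted on log2(FPKM + 0.5) with limma 3.58.1 (R 4.3.3). It held 12759 genes (42.6%) whose mean reached 0.5 FPKM and 24 libraries in 8 groups, with 1 mean per group, eBayes with a trend and 16 residual degrees of freedom. Tests were two-sided, p-values were adjusted by Benjamini-Hochberg over all genes tested, and a gene was called, or said to rise or fall, at an adjusted p under 0.05. The paper's threshold is a p value under 0.05, with no adjustment stated. An unadjusted p under 0.05 is given here as an alternative. Ratios were compared by exact permutation. Alternatives were pseudocounts of 0.1 and 1, no filter, a mean of at least 1 FPKM, median centring, quantile normalization, only the groups compared, and leaving out each library. Fits without doubted libraries were chosen after seeing the data.

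The members and the 12 gene lists were chosen with earlier results of these data known. Genes named from a list are up to 3 that rose most and 3 that fell most in HF week 5 against control. Depth in FPKM is known only relative to other libraries: genes above 0 in at most 8 libraries showed steps of 1 fragment, and all 253 pairs of 23 libraries gave a ratio. In simulated data for HF week 5 against control with 12759 genes, 78% of 100 genes altered by a log2 difference of 1 and 96% of 100 altered by 2 were recovered, 0 in the wrong direction.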

Additional observations from a re-analysis of the deposited data

Results flagged for a closer look

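The difference from control was smaller at HF week 5 than at HF week 3 for each of the 9 members tested, as tested by the contrast of both HF weeks in limma. The log2 fold change of HF week 5 against HF week 3 was -1.58 for Col1a1, -1.65 for Col1a2, -1.84 for Col3a1, -1.53 for Col5a1, -1.83 for Col5a2, -1.45 for Col5a3, -1.42 for Col8a1, -1.05 for Col14a1 and -1.55 for Col16a1. HF week 3 holds 2 libraries, both with high atrial and mesothelial levels, and library 1 had the fewest genes above 0 of all libraries. HF week 3 and HF week 5 also differ in whether Myh6 is listed at 0. The part of these differences was not tested.

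In Recovery week 19, 1 library lay far from the other 4 for 2 members. Col16a1 had 6.87 FPKM in library 5, where the others had 2.95 to 4.04. Col8a1 had 2.45 FPKM in library 2, where the others had 1.76 to 1.92. These were 2 of 20 groups of 5 libraries examined, and chance alone marks about 1 group in 20.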

How the results depend on the processing

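No paired analysis was possible because the columns carry no replicate letters of the labelled samples. Of 1512 values of single members under alternatives, 1396 kept their direction and their side of the threshold, 72 were no longer called, 16 became called and 28, none of them called, changed sign, and 0 called values changed direction. The number of members called in HF week 5 against control was 6, with 3 to 6 when each library was left out and 0 without HF week 5 libraries 1 and 2, where 6 had an unadjusted p under 0.05, as with all libraries. HF week 3 against control gave 9 in each such fit. HF week 5 against HF week 3 gave 9, with 6 to 9 without single libraries and 0 with only the groups compared. Recovery week 7 against HF week 5 gave 5, with 0 to 6 without single libraries, 2 with no filter on low values, 1 with only the groups compared, 1 without HF week 5 libraries 1 and 2, and 8 at the unadjusted p. Recovery week 19 against HF week 5 gave 5, with 2 to 6 without single libraries, 0 without HF week 5 libraries 1 and 2, and 3 without both HF week 3 libraries and HF week 5 library 1. Recovery week 19 against control gave 0 throughout. At an unadjusted p under 0.05 with all libraries, 18.8% of all genes tested were higher in HF week 5 than in control. By that rule 15.4% were lower in Recovery week 7 than in HF week 5. For Recovery weeks 7, 9, 11 and 13 against control the count was 0 of 36, with 0 to 2 without single libraries, 3 with only the groups compared, 1 without both HF week 3 libraries, 1 without HF week 5 libraries 1 and 2, 3 without both HF week 3 libraries and HF week 5 library 1, and 13 at the unadjusted p. The log2 ratio difference between HF week 5 and control was 0.16 to 0.44 for Col3a1 to Col1a1 and -0.45 to -0.23 for Col1a1 to Col1a2 without single libraries. The cause was not tested, except that fits with fewer libraries have fewer residual degrees of freedom, and a library left alone in its group is assumed to vary like the others. Over all genes HF week 5 against control gave 1482 calls upward and 1580 downward (48.4% upward), and 1116 and 1869 (37.4%) with median centring.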
